A study of Mus musculus with 67 samples.

Results

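Aging was examined in the striatum of mice that ate freely, by setting 10 old mice of 704 to 743 days against 10 young adults of 169 to 194 days. All were C57BL/6 mice fed ad libitum (AL), with unlimited regular feed, and each age held 5 males and 5 females. They were picked from the 67 mice of the series by the diet and age given for each sample, and both sexes carried equal weight in every difference. The series asked how age, diet and sex shape the transcriptome of brain regions, and measured the striatum in 57 adult and 10 juvenile mice on AL feed or caloric restriction (CR), with 1 nylon cDNA filter for each mouse. Other groups appear here only where they touch the comparison of old with young: middle-aged AL mice (476 to 499 days, n = 10), and young (174 to 194 days, n = 9) and old (673 to 743 days, n = 8) CR mice, which received a reduced, fortified feed.

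The striatum is the input station of the basal ganglia and consists mostly of spiny projection neurons that receive cortical and dopaminergic afferents, with interneurons, astrocytes, oligodendrocytes, microglia and vessels among them. In the aging brain, genes of glia, lysosomes and immune defense are commonly found to gain expression and genes of synaptic signaling to lose it. Cystatin C, a secreted inhibitor of cysteine proteases made largely by astrocytes, and cathepsin D, the main aspartic protease of lysosomes, both belong to the system that degrades proteins. Hemoglobin mRNA in brain tissue comes from immature red cells in vessels and, at low levels, from neurons and glia.

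Each filter gave a score for 8448 features, of which 4875 carried a single gene symbol. The study reports measuring more genes than this, so a gene missing here was not shown to be missing from its arrays. A score is a Z score: the distance of a feature from the mean of its array in units of that array's SD. Differences are given in Z units, old minus young, and are no fold changes. Depth has no meaning for these filters, and their number limits the precision. The typical 95% confidence interval of a difference between old and young mice extended 0.145 Z to either side. Of the 20 arrays, 17 correlated with the median profile at 0.977 to 0.995, while 3 stood apart (0.935 at the lowest): young male replicate 3, young female replicate 3 and old male replicate 4. The columns of old male replicate 5 and old female replicate 5 list their values in reverse order and were turned end to end. For old male replicate 2 the free-text description repeats that of a juvenile array, while the title and characteristics give 714 days, which were used. Without that array 0 features passed in limma (13 at an unadjusted p under 0.05), and Cst3 differed by 0.277 Z, feature 2 of Ctsd by 0.171 Z and feature 2 of Hba-a1 by -0.107 Z. Among markers of striatal projection neurons, 9 of 36 genes were on the filter and 6 had a mean score above 0, including Ppp1r1b, a dopamine-regulated phosphatase inhibitor, and Rasd2, a striatal small GTPase, while none of the 14 interneuron markers was named on it. Since whole tissue was measured, fewer cells of a type and less RNA per cell cannot be told apart.

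None of the 4257 features with a mean score above 0 differed between old and young AL mice after Benjamini-Hochberg adjustment (0 called by limma, smallest adjusted p = 1). At an unadjusted p under 0.05 there were 12 features (0.282% of those tested), 7 higher (0.164%) and 5 lower (0.117%) in old mice. This is far below the share of 0.05 that evenly spread p-values give, and the reason was not tested. The count was 38 without the arrays of a different profile and 81 after the column correction described below. The 0 called therefore does not show that no feature differed. The first steps of the study's selection, by the size of a difference and an unadjusted p and without the further test over age, sex and diet that followed them there, called 13 of 4249 (0.306%), and 0 of them after adjustment. Of the tested features 48.7% scored higher in old mice. Differences were small throughout: 92.2% lay within 0.1 Z of 0, the largest was 0.277 Z and the smallest -0.176 Z. No feature, tested or not, separated all old from all young mice. The values that follow therefore describe which genes differed most, and none of them passed over all features. For some features the text counts the old mice above or below the young ones. The share of all features that reach such counts was not tallied, so these counts alone do not set a gene apart.

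The features of α globin, the oxygen-carrying subunit encoded by Hba-a1 and Hba-a2, shared 1 direction in this comparison. The filter carried 12 features of Hba-a1 and 3 of Hba-a2, and all 15 scored lower on average in old than in young AL mice, by -0.007 to -0.151 Z with a median of -0.067 Z. Among all 8448 features 52.9% were lower. The 2 genes encode nearly identical transcripts that cross-hybridize and all features were read in the same mice, so that the 15 values are repeats of 1 measurement rather than independent observations. Averaged over the 15 features, the old mice scored 0.189 at the lowest, 0.284 at the median and 0.428 at the highest, and the young mice 0.227, 0.367 and 0.504. The ranges overlapped, and 7 of 10 old mice lay below the median of the young. The difference of the means was -0.0725 Z, smaller than the SD between mice of 1 age (0.0874). Without the arrays of a different profile the difference was -0.102 Z.

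**Figure D1:**
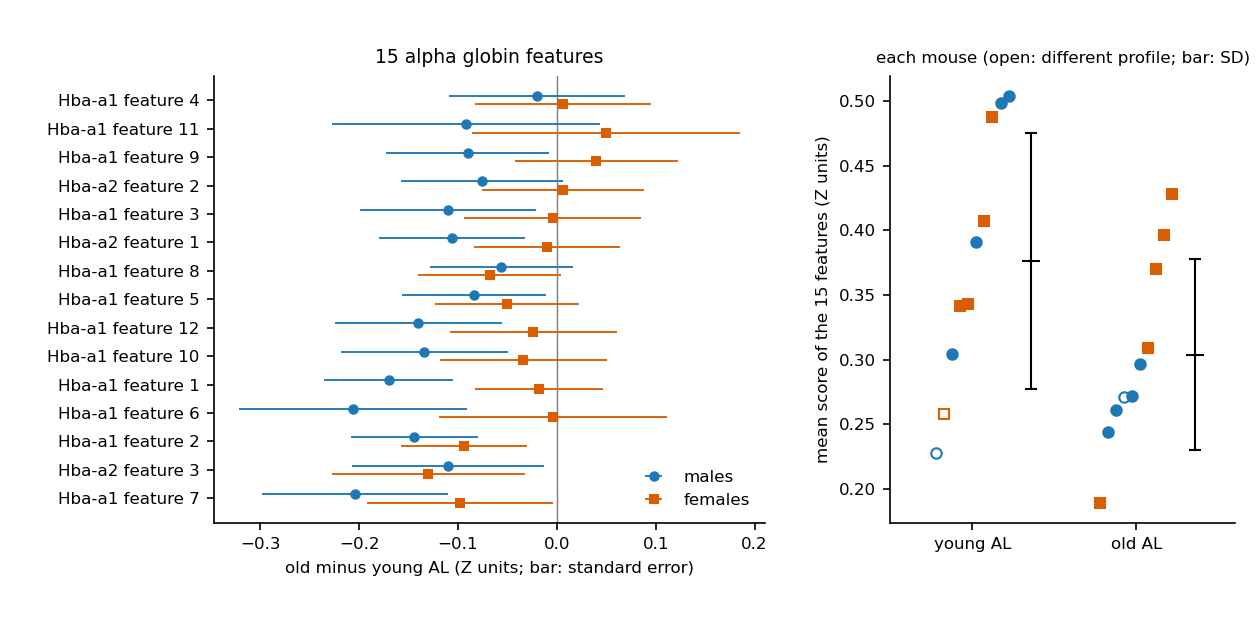
Left, difference between old and young AL mice in Z units for each of the 15 α globin features, in males (circles) and females (squares) with the standard error of limma. Right, mean score of the 15 features in each mouse, with open symbols for arrays of a different profile and bars for the mean and SD of 10 mice; old males lie between 0.244 and 0.297, and young mice between 0.227 and 0.504.

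Feature 2 of Hba-a1 had the smallest unadjusted p of the tested features of a single gene that were lower in old mice. It scored 0.34, 0.485 and 0.65 (lowest, median and highest) in old and 0.53, 0.61 and 0.67 in young AL mice. Of the old mice, 7 lay below every young one, and the highest was old male replicate 4, an array of a different profile. The difference was -0.119 ± 0.0453 Z (SE; 95% confidence interval -0.210 to -0.0281), with a two-sided permutation p of 0.00491 for this feature alone and an adjusted p of 1 in limma. With the arrays of a different profile left out of the adult fit it was -0.138 Z, and after the column correction described below -0.071 Z.

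The sexes contributed unequally to the size of the α globin difference. All 15 features were lower in old than in young males, by a median of -0.110 Z, and 11 of 15 were lower in old females, by a median of -0.018 Z. Averaged over the features, the 5 old males lay between 0.244 and 0.297 and the 5 young males between 0.227 and 0.504, while old females ranged from 0.189 to 0.428 and young females from 0.258 to 0.487. The young male that did not lie above all old males was replicate 3, whose array had a different profile. For feature 1 of Hba-a1 the males differed by -0.17 Z and the females by -0.018 Z, and for feature 2 by -0.144 and -0.094 Z. The contrast of sex by age did not pass for any feature (0 of 4257 called by limma, smallest adjusted p = 1.00; 2 at an unadjusted p under 0.05), so that a difference between the sexes was not shown.

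Middle-aged AL mice lay between both ages on average, with a mean of 0.351 over the 15 features against 0.376 in young and 0.304 in old mice. Of the 15 features, 11 were lower in middle-aged than in young mice and 12 were lower in old than in middle-aged mice, which are comparisons that share arrays with each other and with old against young. In CR mice, on other arrays, 11 of 15 features were lower in old than in young mice, by a median of -0.0307 Z. Other red cell genes of the blood list differed by little against their errors. Alas2, the first enzyme of heme synthesis in red cells (-0.063 ± 0.082 Z, SE), and Car1, the red cell carbonic anhydrase (-0.071 ± 0.052 Z), were below the filter. Slc4a1, the anion exchanger of red cells, differed by -0.005 ± 0.058 Z, and Fech, which inserts iron into heme, was 0.040 ± 0.050 Z higher. Of 8 blood genes measured, Hba-a1 and Hba-a2 included, 7 were lower and 1 higher, where 2390 of all 4209 measured genes were lower. Of 5 tested 4 were lower, with a median of -0.038 Z against -0.009 Z over all 2159 tested genes. That median was -0.0143 Z without the turned arrays, -0.0158 Z after quantile normalization, -0.0216 Z with a term for arrays of a different profile and between -0.0588 and -0.0183 Z when 1 mouse was left out. After the column correction Alas2 was at -0.016 Z and both Bpgm features, of a red cell enzyme, at -0.001 and -0.003 Z. Of the 8 measured blood genes 6 were then lower and 1 higher. Their median was -0.025 Z after the correction, against -0.003 Z over all measured genes, and -0.0515 Z before it. The median score over the tested blood genes ran from 0.349 to 0.586 in old and from 0.443 to 0.660 in young mice. How far blood left in the tissue contributed was not tested.

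Cst3, which encodes cystatin C, had the largest difference of all tested features. Its scores were 0.43, 0.885 and 1.06 (lowest, median and highest) in old and 0.09, 0.615 and 1.03 in young AL mice. The 3 lowest scores among the 20 mice, 0.09, 0.16 and 0.43, came from the 3 arrays of a different profile, and the groups overlapped through these and through young male replicate 1 at 1.03. The difference was 0.277 ± 0.0943 Z (SE; 95% confidence interval 0.0877 to 0.466), 9 of 10 old mice lay above the young median, and a two-sided permutation test of Cst3 alone gave p = 0.0159. It was 0.238 Z in males and 0.316 Z in females, each with an SE of 0.133 Z. Middle-aged mice scored 0.04, 0.715 and 0.86. The difference was 0.090 Z between young and middle age and 0.187 Z between middle and old age. Both steps use the middle-aged arrays, and whether they differ in size was not tested. Middle-aged AL female replicate 2 was also an array of a different profile. Old CR mice scored 0.159 ± 0.104 Z higher than young CR mice.

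Cst3 was also the single feature that passed in any fit of this comparison. With array weights estimated over the 57 adult arrays, it differed by 0.254 ± 0.0503 Z with an adjusted p of 0.0235 in limma. That estimate gave 1 old CR male a weight of 145, where the 20 AL arrays had weights of 0.103 to 3.90, and the iteration stopped before it converged. Weights estimated over the 20 arrays alone, added after this was seen, gave 0.251 ± 0.0512 Z and an adjusted p of 0.191. Over the 15 alternatives that kept the turned columns or left them out, the adjusted p of Cst3 ran from 0.0235 to 1 and its difference from 0.210 to 0.281 Z. Left at equal weight and without the arrays of a different profile, the difference was 0.210 ± 0.0645 Z. With the 2 reversed columns in the order in which they were deposited it was -0.062 Z.

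**Figure D2:**
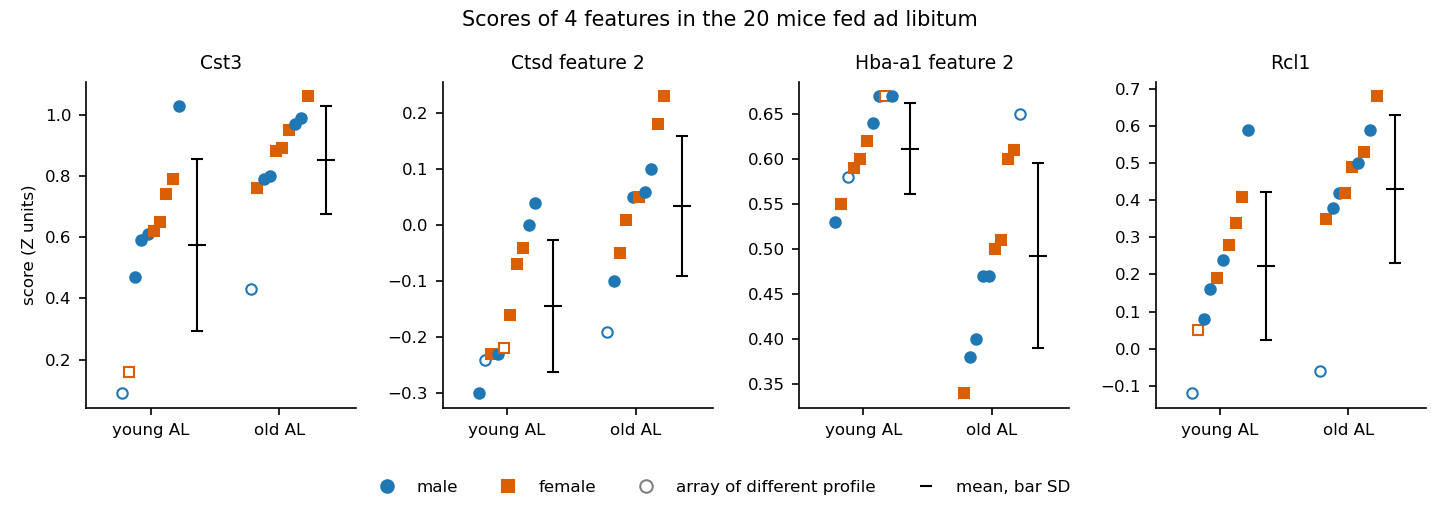
Scores in Z units of Cst3, feature 2 of Ctsd, feature 2 of Hba-a1 and Rcl1 in 10 young and 10 old AL mice, where each symbol is a mouse and the bar marks the group mean with its SD. For Cst3 and Rcl1 the lowest score of the old mice (0.43 and -0.06) belongs to an array of a different profile (open symbols), and no panel shows separate groups.

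Ctsd, the gene of cathepsin D, was represented by a pair of features. Feature 2 had a mean score below 0 and so was outside the test; it scored -0.19, 0.05 and 0.23 in old and -0.30, -0.19 and 0.04 in young AL mice. The lowest old mouse was again old male replicate 4, and 6 old mice lay above all young ones. The difference was 0.179 ± 0.0535 Z (SE; 95% confidence interval 0.0716 to 0.286), with a permutation p of 0.0051 and an adjusted p of 1 in limma without the filter. Females differed by 0.228 Z and males by 0.13 Z. Feature 1, which passed the filter, was 0.070 ± 0.0574 Z higher (permutation p = 0.256) and 0.0265 Z higher without the arrays of a different profile, so that the features of this gene differed in size.

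Other genes of the lysosome showed no common direction. Of 24 measured, 13 were higher and 11 lower, and of 14 tested 7 were higher and 7 lower, with a median of -0.0145 Z. After the column correction 9 of the 24 were higher and 15 lower. Feature 2 of Npc2, the lysosomal carrier of cholesterol, was 0.091 ± 0.0514 Z higher in old mice, and Arsa, the sulfatase that degrades myelin sulfatide, differed by -0.065 ± 0.0501 Z. Among 5 tested autophagy genes 2 were higher and 3 lower. Of 11 measured 7 were higher and 4 lower, and 4 higher and 7 lower after the column correction. Atg14, a subunit of the lipid kinase complex that starts autophagosomes, was 0.095 ± 0.0685 Z higher and lay above the young median in 10 of 10 old mice (permutation p = 0.0133, unadjusted limma p = 0.172). How many of all features did so was not tallied.

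Atg4c, a protease that processes the LC3 family, scored -0.15, 0.375 and 0.52 in old and 0.38, 0.435 and 0.63 in young mice. The lowest 2 old values, -0.15 and -0.08, came from the 2 arrays whose columns had been turned. The difference was -0.144 ± 0.0592 Z with all arrays and -0.0398 Z without those 2. Arpp19, a phosphoprotein that inhibits a phosphatase, behaved likewise for its feature 1, with -0.096 ± 0.0509 Z in all and -0.052 Z without them.

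Further genes with a small unadjusted p are given one by one. Rcl1, which cleaves pre-ribosomal RNA, scored -0.06, 0.455 and 0.68 in old and -0.12, 0.215 and 0.59 in young mice, and differed by 0.208 ± 0.0898 Z (permutation p = 0.0334). It was higher in 9 of 10 old mice than in the median young mouse, and in CR mice it was 0.12 Z higher. Eef1e1, a scaffold of the aminoacyl-tRNA synthetase complex, was 0.097 ± 0.0425 Z higher (permutation p = 0.0136), and feature 1 of Rps4x, a protein of the small ribosomal subunit, 0.112 ± 0.0473 Z (permutation p = 0.0315). Nudt21, a cleavage factor that selects polyadenylation sites, scored 0.45, 0.715 and 0.80 in old and 0.67, 0.80 and 0.86 in young mice. No old mouse exceeded the young median for Nudt21, although the ranges overlapped, and the difference was -0.104 ± 0.0433 Z (permutation p = 0.0255).

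All 55 cytosolic ribosomal protein genes listed were measured. Of 51 tested 33 were higher and 18 lower in old mice, against 42.2% higher among all tested genes, and their median difference was 0.0187 Z. In females the median was 0.0393 Z, in males -0.008 Z, and between old and young CR mice -0.0223 Z. Without the arrays of a different profile the median was 0.00388 Z. After the column correction described below, 44 of the 55 measured were higher and 11 lower. Their median was then 0.021 Z, against -0.003 Z over all measured genes. Rpl37 was the member furthest in the opposite direction (-0.091 ± 0.0487 Z). Mitochondrial ribosomal protein genes were divided, with 6 higher and 5 lower of 11, including feature 2 of Mrpl45 (0.107 ± 0.0904 Z) and the untested Mrps35 (-0.073 ± 0.0475 Z), and so were translation factors, with 7 and 7 of 14, including Eif5a (0.062 ± 0.0470 Z) and feature 4 of Eef1g (-0.087 ± 0.0491 Z), both elongation factors. The other 4 features of Eef1g lay between -0.061 and 0.018 Z.

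**Figure D3:**
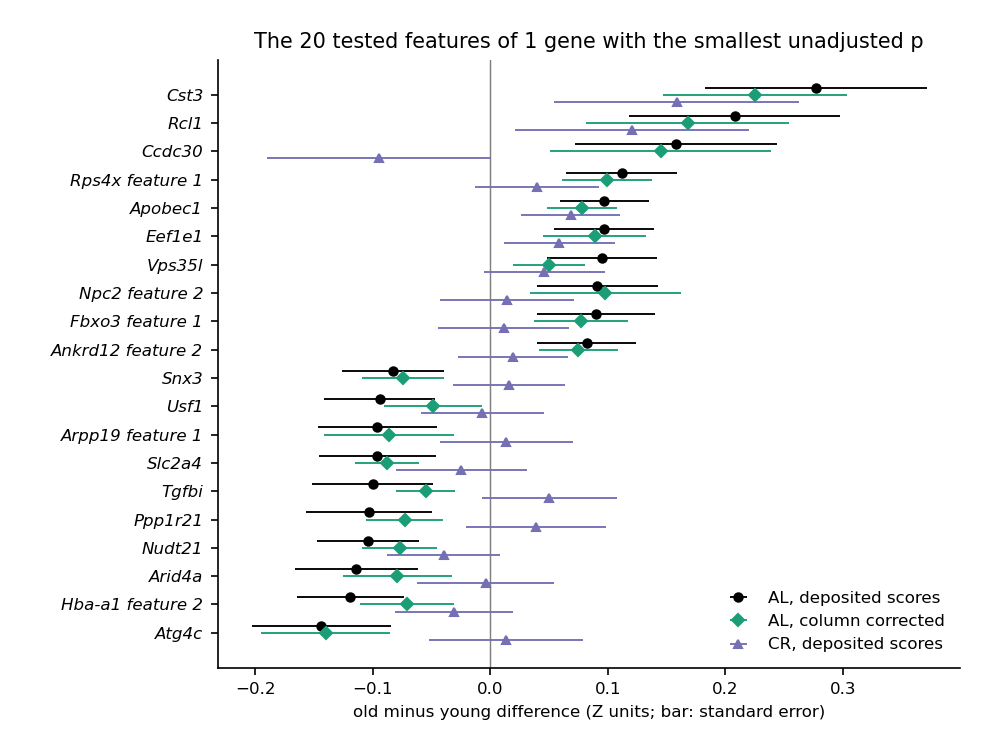
Difference between old and young mice in Z units, with the standard error of limma, for the 10 features of a single gene with the smallest unadjusted p in each direction, from the deposited scores of AL mice (circles), after the column correction (diamonds) and in CR mice (triangles). Cst3 (0.277, 0.225 and 0.159 Z) and Rcl1 (0.208, 0.168 and 0.12 Z) lay above 0 in all fits shown, while Ccdc30 lay at 0.158 Z in AL and -0.0948 Z in CR mice.

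The remaining genes with the smallest unadjusted p had varied functions. Apobec1, a cytidine deaminase that edits RNA, scored 0.02, 0.155 and 0.23 in old and -0.10, 0.05 and 0.16 in young mice, and differed by 0.097 ± 0.038 Z (permutation p = 0.00926). Vps35l, a subunit of the endosomal retriever complex, was above the young median in 10 of 10 old mice and differed by 0.095 ± 0.0466 Z (permutation p = 0.0329). Heatr5a, whose feature 1 was called by the first steps of the study's selection, did so as well, with 0.099 ± 0.0619 Z (permutation p = 0.0475, unadjusted limma p = 0.116). Ccdc30, a coiled-coil protein, was 0.158 ± 0.0858 Z higher, and 0.0835 Z without the arrays of a different profile. Feature 2 of Ankrd12 (0.082 ± 0.0422 Z) and feature 1 of Fbxo3, a ubiquitin ligase subunit (0.090 ± 0.0502 Z), completed the genes with higher scores, and the other feature of each lay at -0.002 and -0.017 Z.

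Among genes with lower scores, the chromatin factor Arid4a differed by -0.114 ± 0.0524 Z, the transcription factor Usf1 by -0.094 ± 0.0471 Z and the matrix protein Tgfbi by -0.1 ± 0.0515 Z. Slc2a4, the insulin-responsive glucose transporter GLUT4, scored 0.05, 0.205 and 0.41 in old and 0.13, 0.31 and 0.53 in young mice, which differ by -0.096 ± 0.0501 Z (permutation p = 0.0505), a value that was -0.148 Z in males and -0.044 Z in females. Snx3, a sorting nexin of endosomes, differed by -0.083 ± 0.0432 Z, and by -0.0533 Z without the turned arrays. Ppp1r21, an endosomal protein, differed by -0.103 ± 0.0537 Z. In these 6 genes 1 or 2 of 10 old mice lay above the young median.

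Features with a mean score below 0 were fitted without the filter, and 53 of 8448 had an unadjusted p under 0.05, with 0 after adjustment. Beside feature 2 of Ctsd and Nr4a2, described with their lists, the named ones included features 7 (-0.151 ± 0.0663 Z, permutation p = 0.0221) and 1 (-0.094 ± 0.0461 Z, permutation p = 0.0689) of Hba-a1. The others were Ubqln4, a proteasomal shuttle protein (-0.130 ± 0.0541 Z, permutation p = 0.00859), feature 2 of Sod2, the mitochondrial superoxide dismutase (-0.097 ± 0.0423 Z, permutation p = 0.0272, against 0.064 ± 0.119 Z for its feature 1, which passed the filter), and Ctage5, which helps large cargo leave the endoplasmic reticulum (-0.181 ± 0.069 Z, permutation p = 0.0267). Feature 1 of Gbp8, an interferon-inducible GTPase, was 0.074 ± 0.0368 Z higher, while its feature 2 was at -0.055 ± 0.105 Z. For Ctage5 the old CR mice lay 0.0929 Z above the young ones, and the contrast of age by diet had an unadjusted p of 0.0106 and an adjusted p of 0.976 in limma.

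Gene lists are described next by how many members lay in each direction. Of the members named, Lgals3bp, C1qa, Itm2a, Sox4, Scn2b, Napg, Calb1, Prkar2b, Camk2g, Csnk1e, Jag1, Adam17, Suclg1, Idh3g, Psmd12, Dnajc3, Top2a, Ccnd2, Rpa3 and Rad50 had mean scores below 0 for the feature given and were fitted without the filter. Of 12 astrocyte genes measured 8 were higher and 4 lower in old mice, and of 7 tested 5 were higher, with a median of 0.056 Z. Beside Cst3, Ndrg2 (0.097 ± 0.082 Z), Sparc (0.078 ± 0.048 Z) and Sparcl1 (0.056 ± 0.086 Z) lay above 0, while Gja1, the gap junction protein connexin 43 (-0.013 ± 0.046 Z), and Vim (-0.006 ± 0.039 Z) lay near it. The median score over the tested astrocyte genes was 0.51 to 0.93 in old and 0.50 to 0.77 in young mice. The list median was 0.036 Z without the arrays of a different profile and 0.027 Z after the column correction, and -0.0112 Z between old and young CR mice. Of the 12 measured 9 were higher and 3 lower after the correction. The myelin and oligodendrocyte list had 4 genes on the filter (Car2, Gpr37, Cryab and Gsn), and all 4 were higher (0.043 to 0.069 Z), each by less than its SE. After the column correction 3 were higher and 1 lower, with a median of 0.073 Z against 0.0495 Z before it.

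Microglial genes did not share a direction. Of 10 measured 6 were higher and 4 lower, among them C1qa, C1qb and C1qc, the chains of complement C1q, at 0.051 ± 0.054, -0.051 ± 0.069 and 0.016 ± 0.039 Z. Lgals3bp differed by -0.054 ± 0.0539 Z, a value that turned to 0.00925 Z without the turned arrays. In the list of endothelium and pericytes Acta2, the smooth muscle actin, was 0.086 ± 0.0753 Z higher and Itm2a differed by -0.087 ± 0.0777 Z.

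Markers of striatal projection neurons were divided, with 3 of 9 measured genes higher and 6 lower, and 5 higher and 4 lower after the column correction. Ppp1r1b differed by 0.007 ± 0.102 Z and Rasd2 by -0.003 ± 0.052 Z, and feature 2 of Strn, the calmodulin-binding protein striatin, by 0.118 ± 0.1 Z, with its feature 1 at -0.004 Z. Of 8 genes of immature neurons 3 were higher and 5 lower, and all 5 tested were lower (-0.06 to -0.011 Z, median -0.014 Z). The transcription factor Sox4, which was not tested, lay at 0.063 ± 0.0472 Z. After the column correction 3 of the 8 were higher and 4 lower. Neurotransmitter receptors and channels were sparsely covered, with 5 of 84 listed genes measured, all 5 lower (-0.008 to -0.071 Z), and 3 of 5 lower after the column correction described below. Scn2b, a sodium channel subunit, was the member with the smallest unadjusted p (-0.071 ± 0.0683 Z). Synaptic vesicle genes had 6 tested members higher, 7 lower and 1 at 0, with Napg, which helps disassemble fusion complexes, at -0.099 ± 0.0821 Z. Of the 22 measured, 10 were higher and 11 lower, and 14 higher and 8 lower after the column correction.

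Signaling genes were similarly balanced. Of 17 tested genes of calcium and cAMP signaling 7 were higher and 10 lower, with a median of -0.033 Z that was 0.006 Z without the arrays of a different profile. Feature 4 of Calb1, the calcium buffer calbindin, differed by 0.136 ± 0.0687 Z and its features 1, 2 and 3 by 0.116, -0.051 and -0.009 Z. Prkar2b, a regulatory subunit of protein kinase A, differed by -0.085 ± 0.0472 Z and Camk2g by -0.076 ± 0.0455 Z. No immediate early gene had a mean score above 0. Of the 6 measured, Nr4a2, a nuclear receptor also needed by dopamine neurons, scored -1.11, -0.91 and -0.71 in old and -0.94, -0.83 and -0.70 in young mice, and so differed by -0.109 ± 0.0537 Z (permutation p = 0.0215), while Ier2 was 0.053 ± 0.0504 Z higher. In the Wnt list 5 of 9 tested genes were higher, with feature 2 of the kinase Gsk3b below the filter at 0.157 ± 0.083 Z, its tested feature 1 at -0.046 ± 0.06 Z and Csnk1e at -0.085 ± 0.0560 Z. In the Notch list 2 of 5 were higher, with the ligand Jag1 at 0.091 ± 0.0786 Z and the protease Adam17 at -0.080 ± 0.0684 Z.

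**Figure D4:**
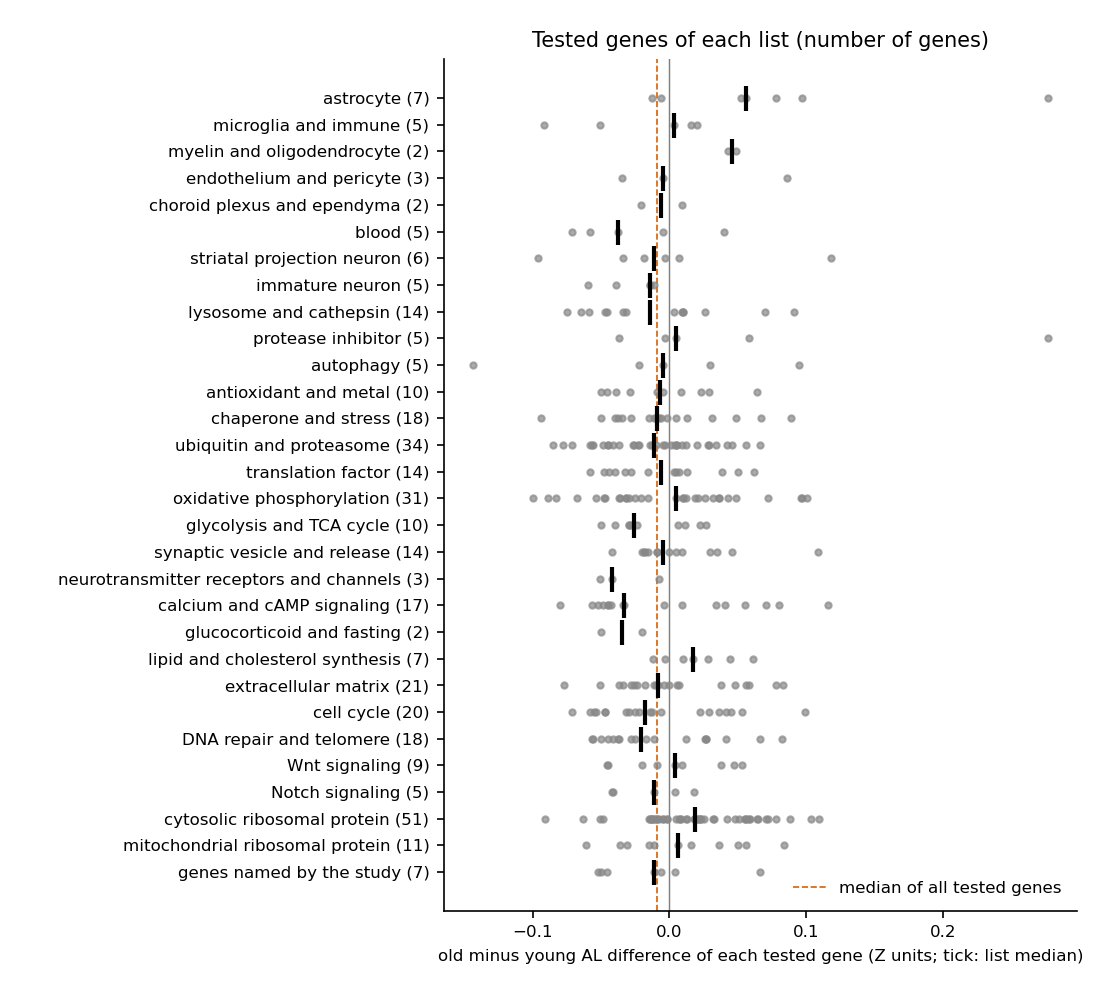
Difference between old and young AL mice in Z units of every tested gene of 30 lists (grey points), with the median of each list (black ticks), the median of all 2159 tested genes (-0.009 Z, dashed line) and the number of tested genes in parentheses. Astrocyte genes had a median of 0.056 Z and blood genes of -0.038 Z, and most lists straddled 0.

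Genes of energy metabolism and protein turnover lay close to the median of all genes. Of 31 tested genes of oxidative phosphorylation 16 were higher and 15 lower (median 0.005 Z), with Cox5b, a subunit of cytochrome c oxidase, at 0.101 ± 0.0667 Z and Ndufv2, a subunit of complex I, at -0.089 ± 0.0493 Z. In glycolysis and the TCA cycle 4 of 10 were higher, Suclg1 being at 0.058 ± 0.0572 Z and feature 1 of Idh3g at -0.065 ± 0.0458 Z. Ubiquitin and proteasome genes had 14 of 34 tested members higher (median -0.0115 Z), with feature 1 of Ube2e1 at 0.077 ± 0.0641 Z and feature 1 of the proteasome subunit Psmd12 at -0.072 ± 0.0503 Z. The second features of both genes had the opposite sign (-0.066 Z for Ube2e1 and 0.034 Z for Psmd12). Chaperones had 6 of 18 higher, including feature 2 of the disulfide isomerase P4hb, which lay above the young median in 10 of 10 old mice (0.060 ± 0.0426 Z, permutation p = 0.063), against -0.034 ± 0.039 Z for its feature 1, while Dnajc3 lay at -0.055 ± 0.0473 Z. Antioxidant genes had 4 of 10 higher, Gsto1 among the untested ones at 0.061 ± 0.0586 Z. In lipid synthesis 5 of 7 were higher (median 0.017 Z), with the untested Elovl5, a fatty acid elongase, at 0.120 ± 0.118 Z and Mvk, mevalonate kinase, at -0.128 ± 0.0795 Z.

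Genes of the cell cycle and of DNA repair had more members lower than higher, as did all tested genes. In the cell cycle list 8 of 31 measured genes were higher and 23 lower, with a median of -0.022 Z against -0.008 Z over all named genes. Feature 1 of Top2a, a topoisomerase of dividing cells, was at -0.099 ± 0.0511 Z, and feature 3 of the cyclin Ccnd2 at 0.072 ± 0.0572 Z, while the 4 tested features of Ccnd2 lay at -0.006 to -0.054 Z. After the column correction 12 of the 31 were higher, and without the arrays of a different profile the median of the 20 tested genes turned from -0.018 to 0.00188 Z. DNA repair genes had 7 of 18 tested members higher (median -0.021 Z, and 0.00538 Z without those arrays), a share near that of all tested genes (38.9% against 42.2%), and after the column correction 16 of 30 measured were higher and 14 lower. Rpa3, of the single-strand binding complex, was at 0.083 ± 0.0550 Z and feature 1 of Rad50 at -0.098 ± 0.0784 Z, while its feature 2, which was tested, was at 0.041 ± 0.0428 Z. Wrn, the Werner helicase that the study's text names, differed by -0.011 ± 0.0469 Z, and Uchl1, a neuronal ubiquitin hydrolase that it also names, by 0.004 ± 0.0795 Z.

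The remaining lists were small or evenly divided: 8 of 21 tested genes of the extracellular matrix were higher and 12 lower, 3 of 5 protease inhibitors were higher, 1 of 2 tested choroid plexus genes was higher, with the untested Calml4 at 0.070 ± 0.0639 Z, and both tested glucocorticoid-responsive genes were lower. Of the 7 tested genes that the study named 2 were higher and 5 lower. Of the 10 measured 5 were higher and 5 lower, and 7 higher and 3 lower after the column correction.

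Males and females were different mice on different filters. Over the 4257 tested features the differences between old and young males and between old and young females correlated at r = 0.188 (Spearman 0.118), given as a description across features that share the place on the filter. No feature passed in either sex (0 called by limma, 9 at an unadjusted p under 0.05 in males and 14 in females). Between AL and CR mice, which also share no array, the differences with age correlated at r = -0.454 (Spearman -0.472). Arrays of a different profile fell unevenly on these groups. In AL they were young male replicate 3, young female replicate 3 and old male replicate 4. In CR they were young female replicate 4 and old male replicate 3. How far they shape this correlation was not tested, and it is no measure of an effect of diet. In CR mice 0 features passed and 6 had an unadjusted p under 0.05, and the contrast of age by diet had 0 and 6 (smallest adjusted p = 0.924). Middle-aged against young AL mice gave 0 and 31, and old against middle-aged 0 and 14, in comparisons that share arrays with old against young.

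Part of the variation between arrays followed the place of a feature. When the rows were read as a grid of 22 columns, the median difference between old and young AL mice ran from -0.0385 to 0.0375 Z by column, about the size of many differences given above. A column correction, chosen after the data were seen, subtracts from each array a running median of its deviations within a column. It narrowed that range to -0.004 to 0.008 Z and brought the median SD of a feature within groups from 0.154 to 0.105 Z. The correction works on these same columns, so the narrower range follows from how it is built. Neither value is a test of the correction. With it 180 of 8448 features (2.13%) had an unadjusted p under 0.05, 72 higher and 108 lower, and 0 passed. Cst3 was then at 0.225 ± 0.0782 Z, feature 2 of Ctsd at 0.148 ± 0.0415 Z, and 14 of the 15 α globin features were lower, with a median of -0.055 Z. After the correction the male and female differences correlated at r = 0.263 and those of AL and CR mice at r = -0.315 over the tested features.

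**Figure D5:**
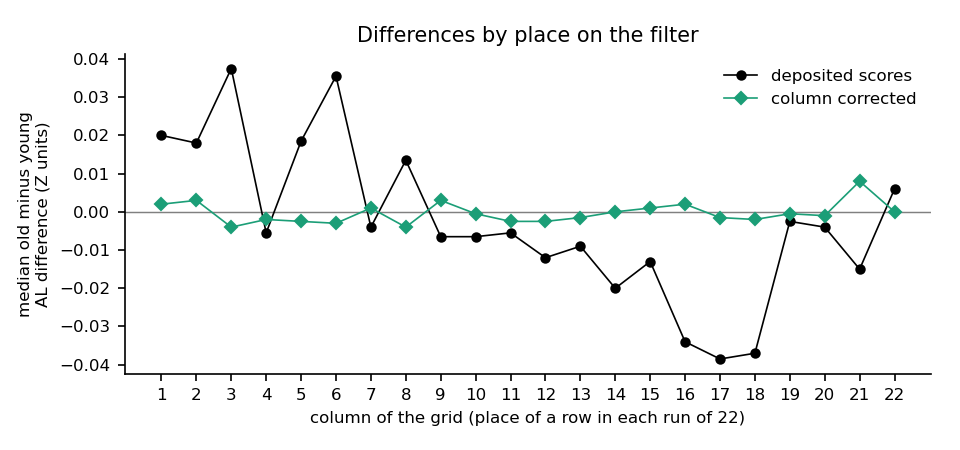
Median difference between old and young AL mice in Z units of the 384 features in each of 22 grid columns, from the deposited scores (circles) and after the column correction (diamonds). The medians run from -0.0385 to 0.0375 Z before and from -0.004 to 0.008 Z after the correction, which brings about this narrowing by construction.

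Of 169 genes with more than 1 tested feature, 85 had differences of the same sign for all of them. Among the 140 genes with 2 tested features, 71 had the same sign for both, which is near an even split. Over these 140 genes the differences of the features correlated at r = 0.138, given as a description over genes. In the deposited scores the 15 α globin features, 12 of them tested, were all lower. Both Ctsd features were higher, but only 1 of them was tested. Features of other genes, such as Sod2, Gbp8 and P4hb, differed in sign.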

How the data were processed

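Total RNA of 1 striatum per mouse was labeled with a radioactive nucleotide and hybridized to a nylon cDNA filter. The deposited values are scores, obtained by the authors by Z score transformation of each array. The log base, the background treatment and the spot intensities are not given in the sources used here, and the number of arrays limits the precision. Groups were assigned from the age, sex and diet of each sample. The columns with title numbers 66 and 67 correlated with the median profile at 0.132 and 0.135 as deposited and at 0.992 in reverse order, and were turned end to end. Features with a mean score above 0 in the 57 adult arrays (12 groups of age, diet and sex) were fitted with limma 3.58.1 in R 4.3.3, with both sexes weighted equally, the Benjamini-Hochberg adjustment and a threshold of 0.05. The rule of the methods was run up to its Z-ratio step (1.5 in size) and unadjusted p, and its final test over age, sex and diet was not run. Single features were compared by a two-sided permutation test (1e+05 resamples). Since nothing states separate litters or preparations, p-values measure the spread between these samples.

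Named features were the 10 in each direction with the smallest unadjusted p, the 5 in each direction with the smallest unadjusted p after correction for filter position without the filter on low scores, the member of each list with the smallest unadjusted p in each direction, and all features of Cst3, Ctsd, Hba-a1, Hba-a2, Wrn and Uchl1. List members that differed by less than their SE are mostly not printed. Heatr5a was named because the rule of the methods called it. The samples and gene lists were chosen with earlier results of these data known. The column correction and the array weights within 20 arrays were added after the data were seen. The fits were run on simulated data with independent noise for each feature. Those data held no arrays of a different profile and no trend by grid column. The simulation therefore cannot show how the fits behave with either.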

Additional observations from a re-analysis of the deposited data

Results flagged for a closer look

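Among 83 named features, each examined in 10 young and 10 old AL mice (166 groups), 20 groups held a single mouse separated from the others by an unusually wide gap, where chance alone gives about 1 group in 20. Of the 20, 13 lay on arrays of a different profile, and 12 of those on old male replicate 4. In that mouse the score (nearest other old mouse in parentheses) was 0.43 (0.76) for Cst3, -0.06 (0.35) for Rcl1, 0.58 (0.78) for Ccdc30, 0 (0.26) for Cox5b and -0.01 (0.46) for feature 2 of Strn. It was 0.37 (0.78) for feature 11 of Hba-a1, -1.06 (-0.6) for feature 2 of Gsk3b and -0.57 (-0.3) for Suclg1. It was 0.7 (0.48) for Arsa, -0.44 (-0.83) for Scn2b, -0.34 (-0.67) for Itm2a and -1.07 (-1.3) for Mvk. The other array of a different profile was young female replicate 3, at 0.94 (0.53) for Arid4a.

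The remaining 7 lay on other arrays. Arpp19 feature 1 scored -0.31 (0.04) in old male replicate 5 and Ndufv2 0.31 (0.5) in old female replicate 5, the arrays whose columns had been turned. Wrn scored -0.1 (0.05) in old male replicate 2 and Eef1e1 0.42 (0.19) in old male replicate 3. Among young mice, Atg4c scored 0.63 (0.48) in male replicate 1, and male replicate 4 scored -0.37 (-0.59) for Dnajc3 and -0.05 (0.25) for Eif5a. What sets these values apart was not tested.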

How the results depend on the processing

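The count of 0 features past the adjusted threshold held under every alternative run and without any single mouse (0 to 0), except with array weights over all adults, which called 1 feature (Cst3) here, 1074 between old and young CR mice and 1 for age by diet. The count at an unadjusted p under 0.05, 12 with all arrays, was less stable: 53 without the filter, 22 after position correction and 62 with both, 7 with the 20 arrays alone, 31 with a term for arrays of a different profile and 38 without them, 122 with array weights and 92 with weights within the 20 arrays, 81 after the column correction and 180 with it and no filter, and 1302 in the order as deposited. Leaving out 1 mouse gave 8 to 67: 67 without old male replicate 4, 8 without young female replicate 3, and 25, 24, 29, 20, 21 and 19 without young male 1, female 2, male 4, female 4, male 5 and female 5. With the replicate block (5 runs of title numbers) the count was 26. Those numbers did not pair the samples (6 of 10 pairs correlated above 0.1, range -0.699 to 0.653, and 2 of 10 arrays correlated best with their own run).

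Of 83 named features 37 kept their sign in every setting. Uchl1 turned to -0.00761 (quantile normalization), -0.0055 (median centring), -0.013 (position correction, with or without the filter), -0.00234 (intensity correction), -0.0218 (term) or -0.0118 (arrays left out) and -0.012 or -0.016 (weights over all adults or 20 arrays), and Lgals3bp to 0.00925 without the turned arrays. After the column correction, with or without the filter, Wrn was 0.01, Hba-a1 feature 9 0.012 and Gsto1 -0.006 Z. Leaving out 1 mouse, ranges that crossed 0 were -0.0818 to 0.032 (Hba-a1 feature 11), -0.0533 to 0.027 (feature 4), -0.0538 to 0.00375 (feature 9), -0.018 to 0.05 (Uchl1) and -0.029 to 0.0148 Z (Wrn). In the order as deposited, where 2 old columns name other features, the sign turned for Idh3g feature 1 (0.24), Prkar2b (0.163), Scn2b (0.247), Snx3 (0.203), Mrps35 (0.14), Uchl1 (-0.171), Hba-a2 feature 2 (0.005), Lgals3bp (0.067), Ubqln4 (0.167), Usf1 (0.038), Ppp1r21 (0.195), Rad50 feature 1 (0.084), Psmd12 feature 1 (0.152), Cst3 (-0.062), Itm2a (0.293), Rpa3 (-0.001), Napg (0.062), Hba-a1 features 1 (0.267), 5 (0.373), 6 (0.11), 8 (0.003), 10 (0.08) and 12 (0.132), Arpp19 feature 1 (0.065), Npc2 feature 2 (-0.531), Mrpl45 feature 2 (-0.053), Csnk1e (0.211), Sod2 feature 2 (0.087), Elovl5 (-0.027), Gsto1 (-0.22), Strn feature 2 (-0.254), Calml4 (-0.051), Suclg1 (-0.272), Mvk (0.42), Gbp8 feature 1 (-0.331), Apobec1 (-0.003), Sparc (-0.145), Eif5a (-0.099), Ctage5 (0.518), Atg14 (-0.21), Vps35l (-0.032) and Eef1e1 (-0.122). Other causes were not tested.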
